A study of Rattus norvegicus with 9 samples.

Results

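The genes described here are 10 genes of the endoplasmic reticulum stress response, Hspa5, Hsp90b1, Dnajb9, Herpud1, Xbp1, Atf4, Atf6, Ddit3, Trib3 and Asns. They were taken by symbol from the 32883 genes of the deposited tables of rat liver bulk RNA-seq. Each symbol occurred once, and all 10 passed the filter on low counts that left 14089 genes for testing. Livers came from male Sprague-Dawley rats, obtained at 8 to 11 weeks of age, with 3 animals in each of 3 groups. Normal livers came from rats without induced liver failure. In the Empty and UTOpiA groups, acute-on-chronic liver failure (ACLF) was induced by bile duct ligation for 21 days followed by intraperitoneal lipopolysaccharide (LPS) at 0.25 mg/kg. Both ACLF groups were connected under isoflurane and heparin to an extracorporeal blood circuit for 2 h, beginning 1 h after LPS. The Empty circuit contained neither cells nor apheresis beads, whereas UTOpiA joined a granulocyte and monocyte apheresis column to alginate capsules of human iPSC-derived hepatocyte-like cells. ACLF livers were taken 24 h after LPS from rats still alive at that time, so rats that died earlier are not represented. The Empty group thus differed from the normal group by ligation, LPS and the circuit together, and their separate effects cannot be told apart in that comparison.

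Misfolded protein in the endoplasmic reticulum (ER) is sensed by the membrane proteins IRE1, PERK and ATF6, which start the unfolded protein response. ATF6 is cut to release a transcription factor, IRE1 splices Xbp1 RNA, and both factors induce ER chaperones and degradation genes. PERK phosphorylates eIF2α, which favours translation of ATF4, a transcription factor that induces Ddit3 (encoding CHOP), Trib3 and Asns. Hepatocytes hold abundant ER because they secrete most plasma proteins. Gene-level RNA counts can record the induced transcripts, but not the splicing, cleavage and translation steps that start the response.

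Known DNA elements of the response were searched for in the promoters of these genes. Promoter sequences were found for 9 of the 10 genes in RefSeq on the GRCr8 build, and Atf6 had no entry. Each window spanned 300 bases around the start of the gene, and both strands were searched. The ER stress response element (ERSE, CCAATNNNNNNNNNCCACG), bound by ATF6 with the CCAAT factor NF-Y, was present in 22 of 33469 promoters (0.0657%), including those of Hspa5, Hsp90b1 and Xbp1. The related ERSE-II (ATTGG and CCACG with 1 base between them) was present in 17 (0.0508%), including that of Herpud1. The C/EBP-ATF response element (CARE, TGATGNAA), at which ATF4 acts, was present in 1332 (3.98%), including those of Herpud1 and Trib3. The XBP1 core site TGACGTGG was present in 199 (0.595%) and in none of the 9. No match was present in the windows of Atf4, Ddit3, Dnajb9 or Asns. The 5 matched promoters are shown because they show which of the genes carry an ERSE-type element, a CARE or both, with 200 bases before the start, 5′ to 3′ along the gene, and the defining letters of each match in capitals. They lie on GRCr8 at chr3:38452816-38453015 (plus strand, Hspa5), chr7:23012294-23012493 (minus strand, Hsp90b1), chr14:84604423-84604622 (plus strand, Xbp1), chr19:10614708-10614907 (minus strand, Herpud1) and chr3:161275534-161275733 (minus strand, Trib3).
Hspa5: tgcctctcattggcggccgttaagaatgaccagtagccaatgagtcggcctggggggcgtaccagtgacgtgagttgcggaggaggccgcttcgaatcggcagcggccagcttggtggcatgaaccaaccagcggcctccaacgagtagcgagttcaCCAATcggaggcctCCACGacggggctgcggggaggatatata
Hsp90b1: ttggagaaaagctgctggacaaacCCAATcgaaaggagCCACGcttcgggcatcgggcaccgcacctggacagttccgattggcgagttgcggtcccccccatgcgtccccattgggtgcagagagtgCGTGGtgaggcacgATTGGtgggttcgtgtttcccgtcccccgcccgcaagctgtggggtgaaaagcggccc
Xbp1: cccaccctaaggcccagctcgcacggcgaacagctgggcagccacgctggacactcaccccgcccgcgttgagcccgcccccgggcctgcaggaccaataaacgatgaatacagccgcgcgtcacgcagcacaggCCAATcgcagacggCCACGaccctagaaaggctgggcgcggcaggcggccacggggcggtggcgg
Herpud1: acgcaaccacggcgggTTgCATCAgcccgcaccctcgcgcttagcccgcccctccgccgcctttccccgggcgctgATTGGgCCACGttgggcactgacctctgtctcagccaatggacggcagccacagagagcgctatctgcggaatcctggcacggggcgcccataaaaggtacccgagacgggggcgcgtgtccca
Trib3: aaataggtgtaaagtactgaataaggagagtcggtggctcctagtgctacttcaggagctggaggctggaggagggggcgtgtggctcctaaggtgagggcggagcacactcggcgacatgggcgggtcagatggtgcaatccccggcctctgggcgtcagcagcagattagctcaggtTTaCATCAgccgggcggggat

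Each library held 14241172 to 17321677 counted reads. Albumin (Alb) made up 13.3% to 14.9% of the counts of normal libraries, against 1.54% to 3.91% in ACLF, so the choice of scaling bears on every level below. Normalised CPM is a count scaled by library size and TMM factor, which sets most genes level between libraries, whereas deposited TPM is a share of each library's total per length. On log2(TPM + 1) the median gene stood 0.44 above normal in the Empty group and 0.28 above it in the UTOpiA group, against 0.04 and 0.05 on normalised counts. Cell-type markers moved with the groups. Summed TPM of 10 hepatocyte markers was 171097 to 186883 in normal, 44186 to 82392 in Empty and 51750 to 79264 in UTOpiA livers, with 6 of 10 lower in Empty livers. Cholangiocyte markers summed to 14.5 to 24.8, 304 to 610 and 128 to 389 (6 of 6 tested higher in Empty), and stellate and fibroblast markers to 105 to 116, 855 to 1054 and 449 to 1023 (6 of 7 higher). Macrophage markers summed to 195 to 232, 372 to 653 and 257 to 520 (5 of 6 higher), and neutrophil markers to 2.26 to 5.92, 182 to 1092 and 173 to 501 (4 of 4 higher). T cell markers summed to 11.5 to 14.7, 56.1 to 92.8 and 28.4 to 93.5 (4 of 5 higher), B and plasma cell markers to 84.5 to 97.1, 113 to 134 and 140 to 200 (1 of 5 higher), and endothelial markers to 83.5 to 93.2, 66.4 to 139 and 72.5 to 99.1 (1 higher and 1 lower of 6). Of all tested genes 20.7% were higher and 11.1% lower in Empty livers. Cd4 had the highest normalised CPM of the tested T cell markers (group means 14.5, 51.1 and 43.2). Sdc1 had that of the B and plasma cell markers (175, 144 and 264) and was not called. Single genes thus weigh heavily on these sums. No marker in the table was at 0 counts in every library. The tested neutrophil markers had normal means of 0 to 0.708 normalised CPM and passed the count filter through the ACLF livers. Mpo, Elane, Camp and Ngp did not pass it. Cholangiocyte markers other than Epcam and T cell markers other than Cd4 also had normal means of at most 1.06. Their counts of higher genes thus owe much to the filter. Fewer cells of a type and less RNA per cell cannot be told apart in bulk tissue, and the part of these shifts in the results below was not tested.

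Among the 10 genes, Hspa5 was the most abundant per length in every group, at a mean TPM of 677 ± 29.5 in normal, 898 ± 43.0 in Empty and 793 ± 157 in UTOpiA livers (SD, n = 3). Hsp90b1 followed at 397 ± 47.4, 593 ± 47.1 and 521 ± 80.3, and Xbp1 came next at 179 ± 40.3, 427 ± 90.6 and 377 ± 120. The order below these changed between groups. Ddit3, at 13.1 ± 2.08 TPM in normal livers, lay below Atf6 (29.98 ± 2.87) and Dnajb9 (24.9 ± 2.84) there. In Empty livers Ddit3 reached 58.1 ± 22.4 TPM, above Dnajb9 (43.8 ± 4.67) and Atf6 (35.3 ± 6.24), although its 3 values spread across both. Asns and Trib3 were the lowest 2 in each group, and in Empty livers (9.66 ± 2.27 and 8.55 ± 2.15) and UTOpiA livers (5.42 ± 2.602 and 4.98 ± 0.856) they did not differ beyond their spread.

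**Figure D1:**
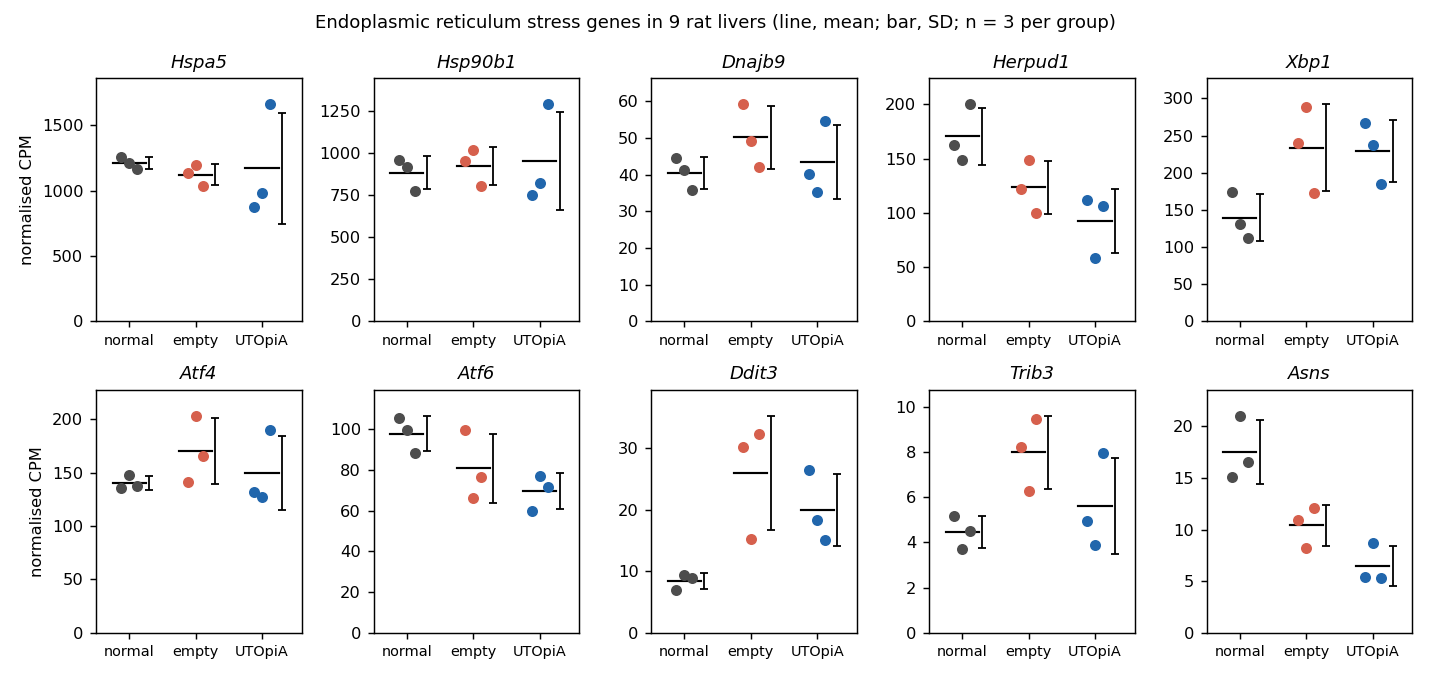
Normalised CPM (vertical axes, from 0) of the 10 genes in the 3 normal, 3 Empty and 3 UTOpiA livers, in replicate order from left to right. Points are livers, lines are means and bars are SD. Ddit3 separates both ACLF groups from normal, Asns runs the opposite way, and one UTOpiA liver stands high for Hspa5 at 1658.

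In ACLF livers Ddit3 rose, whereas on normalised counts none of the 3 chaperone RNAs passed the test. On log2(TPM + 1), where the median gene stood 0.44 above normal, Hsp90b1 and Dnajb9 were higher in Empty livers by under 2-fold. Their log2 differences there were 0.58 (limma adjusted p = 0.0234) and 0.79 (0.00231). Hspa5 encodes BiP, the main ER chaperone and the usual marker of the response. Its normalised CPM was 1258, 1208 and 1166 in normal livers, 1135, 1193 and 1036 in Empty livers, and 874, 981 and 1658 in UTOpiA livers. The log2 fold change from normal to Empty was -0.11 ± 0.27 (SE), with a 95% interval of -0.72 to 0.50 and an edgeR adjusted p of 0.761. All groups overlapped, and the interval ran from 0.606-fold to 1.42-fold.

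Hsp90b1 encodes GRP94, the ER-resident HSP90. Normalised CPM of Hsp90b1 was 962, 920 and 774 in normal, 952, 1020 and 803 in Empty, and 751, 821 and 1290 in UTOpiA livers. Its log2 fold change in Empty was 0.06 ± 0.26 (95% interval -0.52 to 0.65). Dnajb9 encodes ERdj4, a BiP co-chaperone induced through XBP1. It measured 44.4, 41.3 and 35.7 in normal, 59.1, 49.2 and 42.0 in Empty, and 40.3, 35.2 and 54.6 in UTOpiA livers. Its log2 fold change in Empty was 0.31 ± 0.19, with an adjusted p of 0.213 in edgeR. One UTOpiA liver, replicate 3, gave the highest value of all 9 for Hspa5 and Hsp90b1 on this scale.

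Herpud1 encodes a membrane component of ER-associated degradation, the route by which misfolded ER proteins reach the proteasome. Its normalised CPM was 162, 149 and 200 in normal, 122, 149 and 100 in Empty, and 112, 58.8 and 106 in UTOpiA livers. Every UTOpiA liver lay below every normal liver. The share of all genes that separate from normal in this way was not counted, for Herpud1 or for Atf6, Ddit3, Trib3 and Asns below. In UTOpiA against normal, 6921 of 14089 genes had an unadjusted p under 0.05 in edgeR. The log2 fold change in UTOpiA against normal was -0.88 ± 0.26 (edgeR adjusted p = 0.0242), under the 2-fold threshold, and the adjusted p rose to 0.0543 without normal replicate 1 and 0.0863 without normal replicate 3, and was 0.0523 on log2(TPM + 1). In Empty against normal the log2 fold change was -0.46 ± 0.26 (edgeR adjusted p = 0.167). In TPM the Empty mean of 137 ± 22.9 was not below the normal mean of 132 ± 18.8, so the sign in Empty rests on the scaling.

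Among the transcription factors, Xbp1 was the one, besides Ddit3, that passed the adjusted threshold. Its normalised CPM was 174, 132 and 113 in normal, 241, 288 and 173 in Empty, and 266, 237 and 184 in UTOpiA livers. Both ACLF groups were higher, with a single Empty liver just inside the normal range. The log2 fold change was 0.75 ± 0.25 in Empty (edgeR adjusted p = 0.0336) and 0.72 ± 0.25 in UTOpiA livers (adjusted p = 0.0460), both under 2-fold. With one library left out at a time, the adjusted p for Empty ranged from 0.0193 to 0.127 and stayed under 0.05 in 2 of 6 fits. It was 0.106 without normal replicate 2, 0.127 without normal replicate 3, 0.0749 without Empty replicate 1 and 0.0916 without Empty replicate 2. For UTOpiA it held in 2 of 6, and was 0.136 without normal replicate 2, 0.162 without normal replicate 3, 0.135 without UTOpiA replicate 1 and 0.0934 without UTOpiA replicate 2. Counts per gene do not separate spliced from unspliced Xbp1.

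Atf4, the effector of the PERK branch, measured 135, 148 and 137 normalised CPM in normal, 141, 203 and 166 in Empty, and 132, 128 and 190 in UTOpiA livers. Its log2 fold change in Empty was 0.28 ± 0.20 and was not called (edgeR adjusted p = 0.282). Atf6, itself one of the sensors, measured 106, 99.9 and 88.5 in normal, 99.6, 66.5 and 76.5 in Empty, and 60.03, 77.3 and 71.6 in UTOpiA livers. Every UTOpiA liver was below every normal liver, a pattern whose share over all genes was not counted. The log2 fold change of -0.49 ± 0.18 missed the threshold (edgeR adjusted p = 0.0522). The adjusted p was 0.0424 by DESeq2 and 0.0290 with the 6 compared libraries alone, and at least 0.0517 under every other alternative. On TPM the Atf6 difference in Empty turned positive (0.22), below the shift of the median gene.

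Ddit3 rose in both ACLF groups. The gene (ENSRNOG00000006789) encodes CHOP, a C/EBP-family factor linked to cell death under prolonged stress, and is listed at chr7:70580198-70585084 on the plus strand. Its normalised CPM was 6.9999, 9.46 and 8.86 in normal livers, from 80, 117 and 108 counts. It was 30.3, 15.3 and 32.3 in Empty livers, from 584, 285 and 673 counts. In UTOpiA livers it was 26.4, 18.3 and 15.0, from 406, 363 and 200 counts.

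All 6 ACLF livers thus lay above all 3 normal livers for Ddit3. The rise in Empty was 3.07-fold (95% interval 1.89 to 4.99, log2 1.62 ± 0.31, edgeR adjusted p = 0.00260). In UTOpiA it was 2.36-fold (1.46 to 3.83, log2 1.24 ± 0.31, adjusted p = 0.0122). The Empty call was made in all 16 alternative settings, at log2 1.43 to 2.07. The UTOpiA call was made in 15 of 16 and was lost without UTOpiA replicate 1, where the log2 fold change was 0.98. The end of Ddit3 shares 72 bases with Mars1 on the other strand, and whether reads were counted by strand is not given in the sources used here. Mars1, a methionyl-tRNA synthetase, measured 97.2 ± 9.36 in normal and 49.7 ± 5.32 in Empty livers, opposite in direction to Ddit3.

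Trib3 and Asns, both ATF4 targets, differed from normal in opposite directions in Empty livers, each by less than 2-fold. Trib3 encodes a pseudokinase that is induced with CHOP. For Trib3 normalised CPM was 5.16, 3.72 and 4.51 in normal, 8.25, 6.27 and 9.47 in Empty, and 4.94, 3.89 and 7.97 in UTOpiA livers. All Empty livers were above all normal livers, with a log2 fold change of 0.84 ± 0.30 under 2-fold (edgeR adjusted p = 0.0419). Left-out libraries moved that adjusted p between 0.0281 and 0.134, with 1 of 6 fits, the one without Empty replicate 2, under 0.05. UTOpiA livers overlapped both groups.

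Asns (ENSRNOG00000007546, chr4:33743364-33761163, minus strand) encodes asparagine synthetase, which makes asparagine from aspartate and is induced when amino acids are short. Its normalised CPM was 15.0, 21.02 and 16.6 in normal, 10.9, 8.20 and 12.1 in Empty, and 5.40, 8.69 and 5.34 in UTOpiA livers. Normal livers were above all ACLF livers. In Empty the log2 fold change was -0.75 ± 0.24 (edgeR adjusted p = 0.0276), under 2-fold. With a library left out the adjusted p was under 0.05 in 2 of 6 fits, and was 0.104 without normal replicate 2, 0.0539 without normal replicate 3, 0.0517 without Empty replicate 1 and 0.0695 without Empty replicate 2. The adjusted p was also 0.0509 with the replicate block, 0.0534 with at least 10 counts asked of every library, and 0.558 on log2(TPM + 1). In UTOpiA Asns fell, by 1.43 on the log2 scale (SE 0.25, adjusted p = 0.00212), to 0.371-fold of normal (95% interval 0.252 to 0.545). That call was kept in 14 of 16 alternatives, and in the other 2, on log2(TPM + 1), the log2 fold change was -0.998 with the fold just short of 2.

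**Figure D2:**
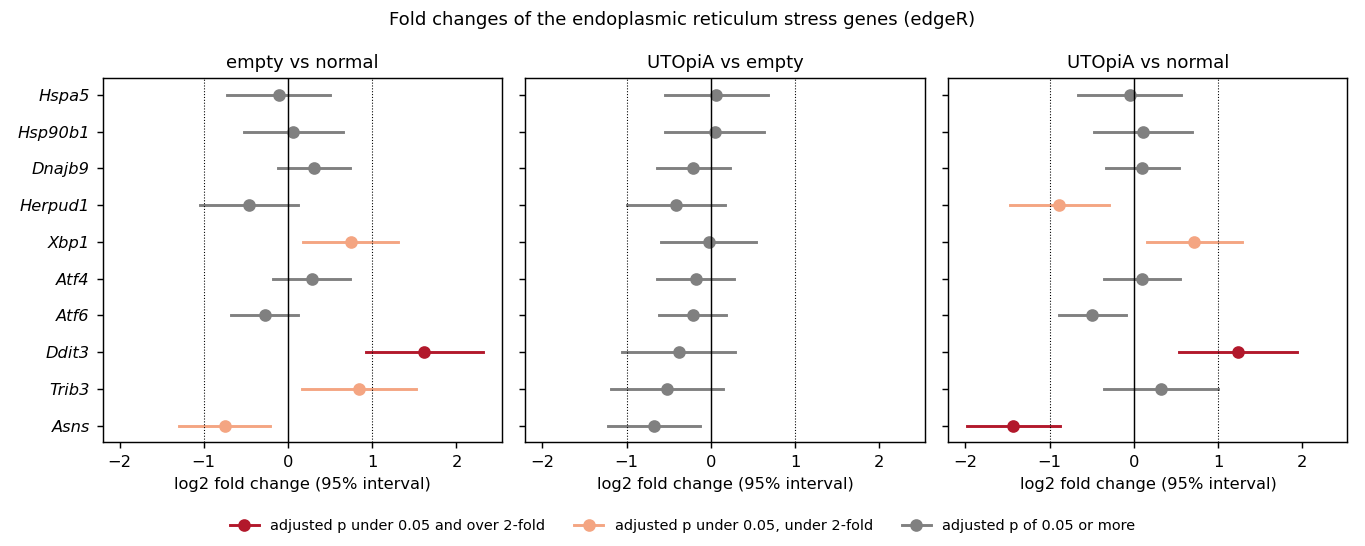
Log2 fold changes (points) with 95% intervals (lines) of the 10 genes in the 3 comparisons, from edgeR, with dotted lines at 2-fold. Dark red (called) marks Ddit3 in both comparisons with normal and Asns in UTOpiA against normal, light orange marks an adjusted p under 0.05 below 2-fold, and no gene is coloured in UTOpiA against Empty.

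The 10 genes were then counted beside the background of all tested genes. Against normal, 1 of 10 was called higher in Empty livers (adjusted p under 0.05 and over 2-fold), where 20.7% of all tested genes were. None was called lower, where 11.1% were. At an adjusted p under 0.05 with any fold, 3 of 10 were higher (Xbp1, Ddit3 and Trib3) and 1 lower (Asns), against 26.9% and 21.5% of all genes. The median log2 fold change of the 10 was 0.17, beside 0.04 over all genes, with a range of -0.75 to 1.62.

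UTOpiA livers were compared with Empty livers to ask what the treatment columns changed within ACLF. No gene of the 10 was called in either direction, and edgeR called 0% of all 14089 genes higher and 0% lower. The smallest adjusted p of any gene was 0.170, and 1456 genes had an unadjusted p under 0.05. DESeq2 called 51 genes higher and 74 lower, none of them among the 10. Asns gave the lowest p of the 10, at a log2 fold change of -0.68 ± 0.25 (unadjusted p = 0.0208, adjusted p = 0.416 in edgeR). It was 1 of 10 with a lower value at that unadjusted threshold, against 4.56% of all genes. For none of the 10 did all UTOpiA livers lie below all Empty livers, a pattern seen in 5.97% of genes.

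In that comparison 8 of 10 log2 fold changes were below 0, beside 49.8% of all genes, with a median of -0.21 (0.00 over all genes). Trib3 was at -0.52 ± 0.30, Herpud1 at -0.42 ± 0.26 and Ddit3 at -0.38 ± 0.30. For Ddit3 the 95% interval ran from -1.05 to 0.29. Hspa5 (0.06, interval -0.55 to 0.67) and Hsp90b1 (0.04, interval -0.54 to 0.63) were the 2 above 0. Without UTOpiA replicate 3 they were -0.27 and -0.23, and on log2(TPM + 1) they were -0.20 and -0.19.

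The UTOpiA and Empty comparisons with normal share the same 3 normal livers, so their values are set side by side only. In UTOpiA, 1 of 10 was called higher (Ddit3), beside 18.2% of all genes, and 1 lower (Asns), beside 6.81%. At any fold 2 were higher (Xbp1 and Ddit3) and 2 lower (Herpud1 and Asns), beside 23.3% and 16.2%. Over the 10 genes, the median log2 fold change was 0.10 in UTOpiA and 0.17 in Empty livers, beside all-gene medians of 0.05 and 0.04. On log2(TPM + 1) the called counts in UTOpiA were 2 higher (Xbp1 and Ddit3) and 0 lower, beside 16.3% and 3.63% of all genes on that scale.

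In Empty against normal, the signs of Hspa5, Herpud1 and Atf6 depended on the scale, whereas those of Ddit3 and the other genes did not. On log2(TPM + 1) with limma, the Empty difference from normal was 0.41 for Hspa5 (adjusted p = 0.0881), 0.58 for Hsp90b1 (0.0234), 0.79 for Dnajb9 (0.00231) and 0.78 for Atf4 (0.00559). The shift of the median gene on that scale was 0.44, so Hspa5 was slightly below it and Hsp90b1 slightly above it. Xbp1 (1.25), Ddit3 (2.00) and Trib3 (1.13) were called on that scale, making 3 of 10 called higher, beside 24% of all 13316 genes tested on it. Asns was at -0.22 (adjusted p = 0.558). In the plot of both scales every gene lies further to the right on TPM.

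**Figure D3:**
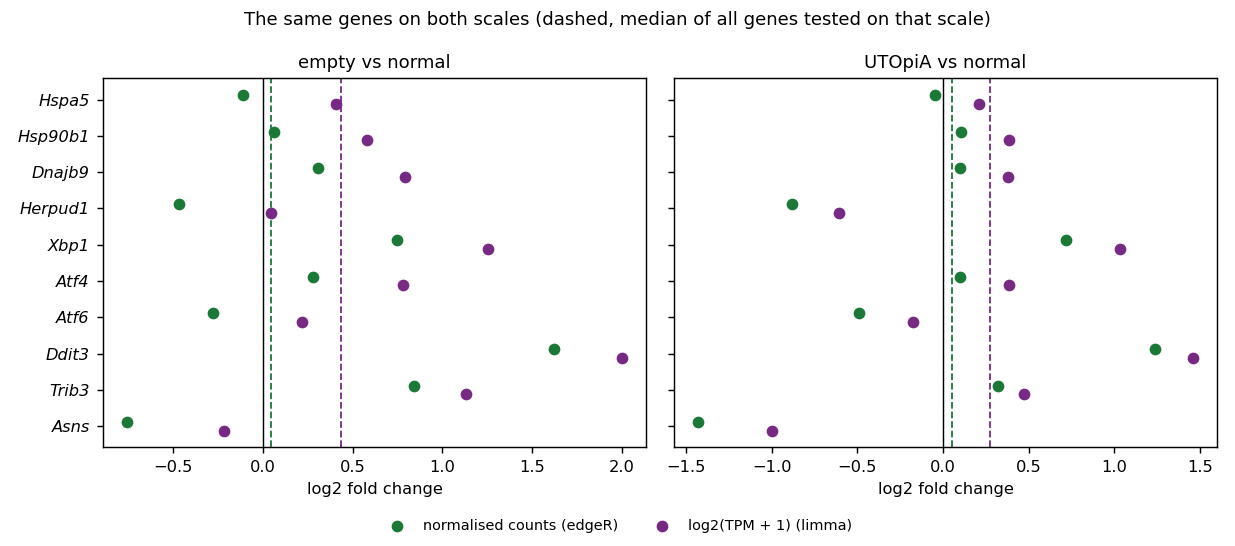
Log2 fold changes against normal of the 10 genes on normalised counts (green, edgeR) and on log2(TPM + 1) (purple, limma), with Empty on the left and UTOpiA on the right. Dashed lines mark the median of all genes on each scale (0.04 and 0.44 in Empty, 0.05 and 0.28 in UTOpiA), and Hspa5, Herpud1 and Atf6 cross 0 in the left panel.

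To describe the pathway, 9 lists of related genes, 122 in all, were written to place the 10 genes in their pathway, and 118 of them were tested. In Empty livers 10 rose (8.47%) and 17 fell (14.4%), with a median log2 fold change of -0.39, beside 20.7% higher, 11.1% lower and a median of 0.04 over all tested genes. On log2(TPM + 1) the split was 10 higher and 4 lower, beside 24% and 5.18% of all genes on that scale. In UTOpiA against normal it was 6 higher (5.08%) and 12 lower (10.2%), beside 18.2% and 6.81% over all genes. In UTOpiA against Empty edgeR called none, with 14 of 118 at an unadjusted p under 0.05, beside 1456 of 14089 over all genes.

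**Figure D4:**
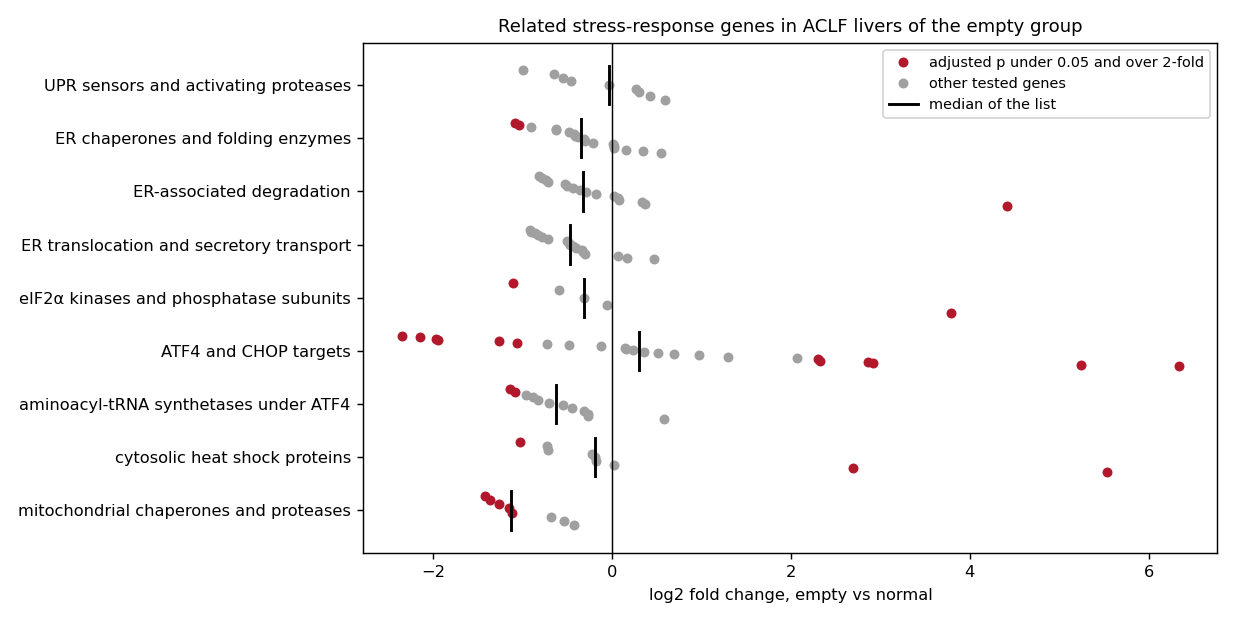
Log2 fold change from normal to Empty livers (horizontal axis) of each tested gene in 9 lists, excluding the 10 genes above. Red points were called, black bars are list medians, and the mitochondrial chaperones lie furthest to the left, with a median of -1.14.

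The lists below are counted against the same all-gene shares in Empty livers, 20.7% higher and 11.1% lower. Of 9 sensors and activating proteases none was called in Empty livers. Of 18 ER chaperones and folding enzymes none rose and 2 fell, with a list median of -0.35. Sdf2l1, an ERdj3 partner, measured 48.3 ± 6.62 in normal and 22.8 ± 3.79 normalised CPM in Empty livers (log2 -1.08 ± 0.27, edgeR adjusted p = 0.00831). Sil1, the nucleotide exchange factor of BiP, went from 55.6 ± 0.920 to 27.0 ± 4.81 (log2 -1.04 ± 0.23, adjusted p = 0.00466). Both calls were lost on TPM and with at least 10 counts asked of every library, where neither reached 2-fold. Sdf2l1 was also lost without normal replicate 1 or Empty replicate 2, and Sil1 without Empty replicate 3.

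Among 16 genes of ER-associated degradation only Derl3 was called, as higher. It measured 0.437, 0 and 0.082 normalised CPM in normal and 4.46, 1.02 and 5.77 in Empty livers, and it is also one of the plasma cell markers used here. Derl3 thus passed the count filter through the ACLF livers, and it was not tested with at least 10 counts asked of every library. None of 17 genes of ER translocation and secretory transport was called, and their median was -0.47. Besides Derl3, the list genes with an ERSE in their promoters were Calr, Canx, Creld2, Dnajc3 and Ero1b, all ER chaperones or folding enzymes. Their log2 fold changes in Empty livers were -0.39, 0.15, 0.01, -0.91 and -0.43, and Dnajc3 was lower at an edgeR adjusted p of 0.0112 but under 2-fold. These genes were picked out by the promoter search after their values were known.

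Of 24 tested ATF4 and CHOP targets, 6 rose and 6 fell in Empty livers, beside all-gene shares of 20.7% and 11.1%. Ddit4, an mTORC1 inhibitor also known as REDD1, measured 3.76, 2.75 and 6.31 normalised CPM in normal, 30.1, 34.9 and 28.01 in Empty, and 17.8, 22.0 and 17.8 in UTOpiA livers (Empty log2 2.86 ± 0.27, edgeR adjusted p = 0.000104). Bcl2l11, which encodes the pro-apoptotic protein BIM and is induced by CHOP, measured 6.39, 4.37 and 2.30 in normal, 20.9, 21.5 and 22.6 in Empty, and 24.3, 14.6 and 18.7 in UTOpiA livers. Its log2 fold change in Empty was 2.32 ± 0.32 (adjusted p = 0.000552). Both were called in all alternatives and in both ACLF groups, as Ddit3 was in Empty.

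Of the lower genes, Shmt2, the mitochondrial serine hydroxymethyltransferase, measured 299, 293 and 311 normalised CPM in normal, 64.1, 82.0 and 57.1 in Empty, and 84.6, 56.9 and 137 in UTOpiA livers (Empty log2 -2.15 ± 0.30, edgeR adjusted p = 0.000524). It was called lower under every alternative. Atf3 and Nupr1 were also called higher and were chosen for description after their values were seen, because 1 liver dominated each. Atf3 measured 3.94, 235 and 9.27 in Empty livers and had its call kept in 7 of the 14 alternatives that gave an adjusted p. It was lost with any one normal replicate left out (adjusted p of 0.0538 to 0.0620 in edgeR), on log2(TPM + 1), with no count filter and with the replicate block. Nupr1 measured 2.39, 2.25 and 227 in Empty livers, and its call was kept in 3 of the 13 alternatives that gave an adjusted p. It was lost with each normal replicate left out, on TPM, with no count filter, with the replicate block and with the 6 compared libraries alone, and without Empty replicate 3 its log2 fold change was 1.28.

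Of 12 aminoacyl-tRNA synthetases induced by ATF4, none rose, 2 fell by over 2-fold and 8 were lower at any fold in Empty livers, beside all-gene shares of 11.1% and 21.5%. Cars, the cysteinyl enzyme, went from 38.6 ± 3.02 to 18.2 ± 0.695 normalised CPM (log2 -1.08 ± 0.13, edgeR adjusted p = 0.000245), and Tars1, the threonyl enzyme, from 204 ± 22.6 to 92.4 ± 29.6 (log2 -1.14 ± 0.24, adjusted p = 0.00379). Both fell short of 2-fold on TPM, and Cars also with at least 10 counts asked of every library (-0.98). Asns was lower in the same livers, with a list median of -0.63 beside its own -0.75.

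Of 5 eIF2α kinases and phosphatase subunits, Ppp1r15a rose and Ppp1r15b fell. Ppp1r15a encodes GADD34, the CHOP-induced subunit that reverses eIF2α phosphorylation. It measured 3.41, 4.12 and 6.64 normalised CPM in normal, 16.1, 155 and 25.1 in Empty, and 15.7, 15.0 and 13.8 in UTOpiA livers. Empty replicate 2 was far above the rest, and the call was kept under all alternatives, at log2 2.12 to 4.25. Ppp1r15b, the constitutive subunit, went from 119.5 ± 19.7 to 55.6 ± 4.41 (log2 -1.10 ± 0.22, edgeR adjusted p = 0.00320), a call lost without normal replicate 1 and on TPM.

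Heat shock genes outside the ER were read beside these. In the cytosol 2 of 9 tested rose and 1 fell, near the all-gene shares of 20.7% and 11.1%. Empty replicate 2 was the highest of the 9 livers for 4 of these genes, with no all-gene share counted. Hspa1b, an inducible HSP70, measured 0.175, 0.323 and 0.328 normalised CPM in normal, 2.96, 23.2 and 13.3 in Empty, and 2.47, 3.89 and 2.33 in UTOpiA livers (Empty log2 5.53 ± 0.81, edgeR adjusted p = 0.000784). Being near 0 in normal livers, Hspa1b passed the count filter through the ACLF livers. It was not tested with at least 10 counts asked of every library. Its log2 fold change ran from 3.04 to 5.99 over the alternatives. The reads of Hspa1b cannot be told apart with certainty from those of its near-identical copy Hspa1a. Hspb1, the small protein HSP27, measured 8.05, 10.8 and 8.36 in normal and 20.2, 40.9 and 116 in Empty livers (log2 2.70 ± 0.61, adjusted p = 0.00685). Its call was kept in all 15 alternatives, at log2 1.75 to 3.10. Dnaja1, an HSP70 co-chaperone, fell from 349 ± 26.2 to 170 ± 61.0 (log2 -1.04 ± 0.25, adjusted p = 0.00729), a call lost on TPM, with at least 10 counts asked of every library, and without normal replicate 2, Empty replicate 1 or Empty replicate 3.

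Of the mitochondrial chaperones and proteases 5 of 8 were called lower in Empty livers and all 8 were lower at any fold, beside all-gene shares of 11.1% and 21.5%, with a median of -1.14. All 5 calls were lost on TPM. Hspa9, the mitochondrial HSP70, went from 464 ± 46.6 to 173 ± 30.3 normalised CPM (log2 -1.42 ± 0.19, edgeR adjusted p = 0.000461). Lonp1, the matrix protease, went from 179 ± 12.2 to 74.7 ± 10.47 (log2 -1.26 ± 0.17, adjusted p = 0.000466). Dnaja3, a co-chaperone of Hspa9, went from 133 ± 8.07 to 61.1 ± 13.96 (log2 -1.12 ± 0.19, adjusted p = 0.00119). On log2(TPM + 1) these 3 stayed negative but under 2-fold. UTOpiA livers gave 172 ± 13.3, 72.2 ± 11.8 and 67.4 ± 9.76 for the same genes.

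Between UTOpiA and Empty livers, DESeq2 called 2 genes of the 9 lists and edgeR none. Slc7a5, the LAT1 amino acid transporter and an ATF4 target chosen after its values were seen, measured 3.89, 6.06 and 8.41 normalised CPM in Empty and 20.1, 12.8 and 14.7 in UTOpiA livers. Against normal livers it was called lower in Empty (log2 -1.07 ± 0.29, edgeR adjusted p = 0.0126), a call kept in 9 of 15 alternatives and lost on TPM, with at least 10 counts asked of every library, without normal replicate 2 and without Empty replicate 1 (-0.83). All 3 UTOpiA livers were above all Empty livers, at a log2 fold change of 1.37 ± 0.29 (edgeR adjusted p = 0.211, DESeq2 adjusted p = 0.00547). Hspa1b was lower by DESeq2, at a log2 fold change of -2.19 (adjusted p = 0.0411).

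One library stood apart for many ER chaperone genes. In UTOpiA replicate 3, the 18 ER chaperones and folding enzymes had a median log2 difference of 0.29 from the normal mean, against -0.38 and -0.44 in the other UTOpiA livers. It held the highest of 9 values for 10 of these 18 genes, for 6 of 16 degradation genes and for 6 of 17 translocation genes, but for 1 of 9 sensors and activating proteases. Normal replicate 1 was highest for 5, 5 and 8 genes of the first 3 of these lists. How often each library was highest over all tested genes was not counted, so these counts have no background share. In UTOpiA replicate 3 the Herpud1 and Atf6 levels were low like those of the other UTOpiA livers, at log2 differences of -0.67 and -0.45 from the normal mean. For the mitochondrial chaperones it was lower than normal like the rest, at -0.70. Its TMM factor was 0.860, against 1.06 and 1.23 in the other UTOpiA livers, and whether scaling bears on its ER levels was not tested. In TPM its Hspa5 level of 934 lay within the Empty range of 857 to 943. Without it, the log2 fold changes of Hspa5 and Hsp90b1 in UTOpiA against normal were -0.39 and -0.18, neither of them called.

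**Figure D5:**
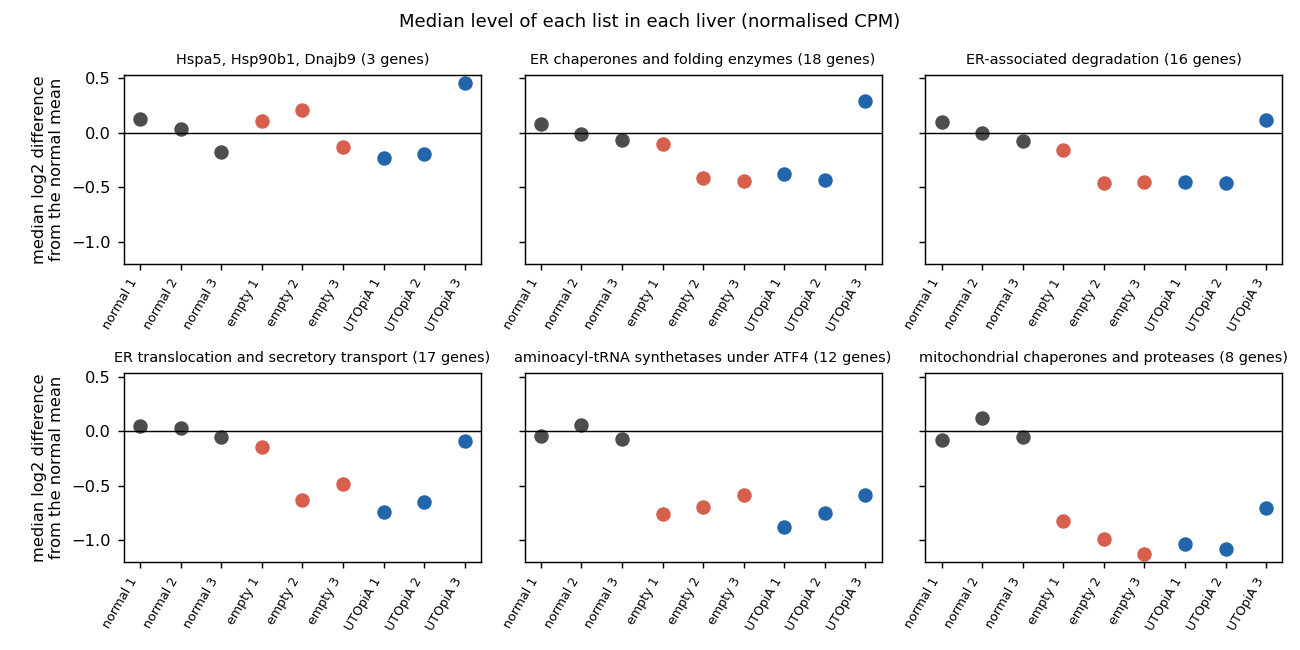
Median log2 difference from the normal mean (vertical axes, normalised CPM) of 6 gene groups in each of the 9 livers (horizontal axes). UTOpiA replicate 3 is the highest ACLF liver in every panel but that of the tRNA synthetases, where Empty replicate 3 (-0.58) and UTOpiA replicate 3 (-0.59) lie together. It was not the highest ACLF liver for the sensors, eIF2α subunits, ATF4 and CHOP targets and cytosolic heat shock genes, which are not drawn. The tRNA synthetases and mitochondrial chaperones are below 0 in all 6 ACLF livers.

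Across the 9 livers, the genes whose log2 CPM ran closest to Hspa5, among 8136 with a mean of at least 10 CPM, were Pgam1 (Pearson r = 0.94), Creld2 (0.93), Pced1a (0.90), Hsp90b1 (0.89) and Pid1 (0.89). For Asns they were Mtpap (0.97), Rpl7l1 (0.96), Mtdh (0.96), Ddx47 (0.96) and Las1l (0.96). These are descriptions over 9 libraries that share their group differences and scaling. With the group means removed, Hspa5 and Hsp90b1 still ran together (r = 0.95 over the 9 livers). UTOpiA replicate 3 weighs on that value, at log2 differences from the normal mean of 0.45 for Hspa5 and 0.55 for Hsp90b1. The other UTOpiA livers were at -0.47 and -0.30 for Hspa5 and -0.23 and -0.10 for Hsp90b1. The correlation without replicate 3 was not computed.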

How the data were processed

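Liver RNA was sequenced in 9 rats, 3 per group, and libraries were grouped by their labels. The authors deposited raw read counts per gene, without normalisation, and TPM values scaled by gene length. Per the labels, reads were trimmed with Trimmomatic, aligned with HISAT2 to rn6 and counted with featureCounts, whereas the study's methods name Cutadapt and the mouse build GRCm38. Positions are as in the tables, and the counting's strand option is not given in the sources used here. Counts were filtered with filterByExpr, TMM-normalised and tested with edgeR 4.0.16 (R 4.3.3), using the two-sided quasi-likelihood test on all 9 libraries. A call needed an adjusted p (Benjamini-Hochberg, over 14089 genes) below 0.05 and a fold above 2. Alternatives used DESeq2 1.42.0, limma 3.58.1 on log2(TPM + 1) and log2(TPM + 0.1), other filters and normalisation, the replicate number as a block, and each library left out. The edgeR script was tested on simulated counts. Genes named beyond the 10 were the 3 lowest p called in Empty against normal in each list with a mean of at least 1 CPM, any called in UTOpiA against Empty, and the 5 closest in r to Hspa5 and Asns. Named outside this rule were Atf3, Nupr1 and Slc7a5, chosen after their values were seen, Mars1, which overlaps Ddit3, and the list genes that the ERSE search found. Single cell-type markers were named only for their abundance or their low normal values. The 10 genes and all lists were chosen with earlier results of these data known. Bbc3, Tnfrsf10b and Hspa1a have no row of their own, and Slc7a11 was not tested. Promoters are from RefSeq (GRCr8).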

Additional observations from a re-analysis of the deposited data

How the results depend on the processing

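Of the log2 fold changes of the 10 genes under the alternatives, 140, 149 and 141 kept their direction and side of the threshold in Empty against normal, UTOpiA against Empty and UTOpiA against normal, 9, 0 and 6 became called, 0, 0 and 3 lost the call, and 11, 11 and 10 changed sign; the cause was not tested. On log2(TPM + 1), log2(TPM + 0.1) and unfiltered log2(TPM + 1), Empty against normal had 3, 3 and 3 of the 10 genes called higher, with 10, 15 and 10 list genes called higher and 4, 4 and 3 lower, beside 3202, 3666 and 3245 of all genes higher and 690, 748 and 693 lower. UTOpiA against normal had 2, 2 and 2 of the 10 higher, 0, 1 and 0 lower, 4, 5 and 4 list genes higher and 5, 6 and 5 lower, beside 2167, 2677 and 2003 of all genes higher and 483, 524 and 473 lower. On the same 3 settings Hspa5 was at 0.407, 0.4075 and 0.407, Herpud1 at 0.0485, 0.0488 and 0.0485 and Atf6 at 0.2199, 0.2258 and 0.2199 in Empty. In UTOpiA against Empty, Hspa5 was at -0.1983, -0.1986 and -0.1983 and Hsp90b1 at -0.1947, -0.195 and -0.1947, and in UTOpiA against normal Hspa5 was at 0.2087, 0.2089 and 0.2087. With at least 10 counts in every library Hspa5 was at 0.0325 in UTOpiA against normal. With no fold threshold, 3 of the 10 were higher, 1 lower and 44 list genes lower in Empty, and 2, 2 and 36 in UTOpiA against normal. DESeq2 called 1 list gene higher and 1 lower in UTOpiA against Empty.

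With 1 library left out, Hsp90b1 ranged from -0.0303 to 0.1547 in Empty against normal. In UTOpiA against Empty, Hspa5 ranged from -0.2734 to 0.2208, Hsp90b1 from -0.234 to 0.1773 and Xbp1 from -0.2047 to 0.1526. In UTOpiA against normal, Hspa5 ranged from -0.3882 to 0.1152, Hsp90b1 from -0.1753 to 0.2446, Dnajb9 from -0.1036 to 0.2296, Atf4 from -0.1123 to 0.2015 and Trib3 from -0.0202 to 0.5314, with the lowest value of each without UTOpiA replicate 3. In that comparison 0 to 1 of the 10 were called higher and 1 to 2 lower, both ends (0 and 2) without UTOpiA replicate 1.

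Deviations from group means correlated at -0.18 to 0.06 between equal replicate numbers, and at -0.14, -0.18 and -0.15 between UTOpiA and Empty livers. Unequal numbers were not set beside them, so whether replicate numbers pair the samples or share a batch was not tested. With the replicate block, 8 list genes were higher and 17 lower in Empty against normal, 6 and 13 in UTOpiA against normal and 0 and 0 in UTOpiA against Empty, and no call among the 10 over 2-fold changed, while the adjusted p of Asns at any fold in Empty against normal became 0.0509. With 3 livers a group the precision is that of the 95% intervals given above.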
